A study of Mus musculus with 6 samples.

Results

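The proteins that retrieve filtered albumin, vitamin carriers and hormones from the tubular fluid are encoded by a small set of genes, and 8 of them were followed here: Lrp2, Cubn, Amn, Dab2, Lrpap1, Clcn5, Ocrl and Folr1. They were chosen by name, as parts of one pathway and with earlier results of these data known, from the 22206 transcript clusters measured (a transcript cluster is the group of probes that reports on about 1 gene). Each of the 8 had 1 cluster carrying its symbol. Not all of them are receptors: the set also holds adaptor, chaperone, ion exchanger and lipid phosphatase genes.

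RNA came from tubular epithelial cells that collagenase had freed from the kidneys of mice, which had first undergone 30 min of ischemia and then 24 h of reperfusion. The IR PT2385 group (3 arrays) came from mice given PT2385, an inhibitor of the hypoxia-inducible factor HIF-2α, at 10 mg/kg, once 16 h ahead of surgery and then 1, 8 and 20 h afterwards. The IR vehicle group (3 arrays) went through the same injury with vehicle. The labels call the samples IRPT and IR, which were taken as these arms, and the protocol once writes the injected compound as PT2384. The labels give no strain, sex or age and describe no sorting of the cells after digestion, and nothing says that the arrays of a group came from separate animals. The p-values therefore measure the spread between these arrays, which may be technical. All comparisons are between arms after the same injury, and uninjured kidneys were not analysed here.

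Megalin (Lrp2) and cubilin (Cubn) are large receptors of the apical membrane of the proximal tubule. Amnionless (Amn) anchors cubilin in the membrane and brings it to the surface, and the adaptor Dab2 links the receptor tails to clathrin coats. After uptake, endosomes are acidified with the help of the chloride-proton exchanger ClC-5 (Clcn5), cargo goes on to lysosomes and the receptors return to the surface. Losing ClC-5 or the phosphoinositide phosphatase OCRL causes tubular proteinuria in people (Dent disease and Lowe syndrome).

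The arms also differed in transcripts of the Y chromosome in every array. Eif2s3y had 3.27, 3.04 and 3.34 in the IR PT2385 arrays, against 9.09, 9.24 and 9.28 in the IR vehicle arrays (log2 signal), and Uty and Kdm5d were likewise far lower in all IR PT2385 arrays. For no gene below can the treatment be told apart from a difference in the animals' sex. Clcn5 and Ocrl lie on the X chromosome. The isolates held transcripts of other nephron segments too. All 5 thick ascending limb and distal convoluted tubule markers were higher on average in the IR PT2385 group, where their mean log2 signal was 9.40 to 10.26, against 8.68 to 8.87 in the IR vehicle group. All 5 collecting duct markers were also higher, with a mean of 8.95 to 9.17 in IR PT2385 arrays and 8.39 to 8.57 in IR vehicle arrays. None of these 10 markers passed the threshold, an adjusted p under 0.05 in limma's fit. At an unadjusted p under 0.05 there were 5 limb and distal tubule markers and 3 collecting duct markers, beside 14.5% of all clusters. The smallest p in the limb and distal tubule list belonged to Slc12a3 (difference 0.55, adjusted p = 0.127 with limma) and Slc12a1 (1.498, adjusted p = 0.130 with limma). In the collecting duct list they belonged to Scnn1b (difference 0.545, adjusted p = 0.0535 with limma) and Aqp2 (1.10, adjusted p = 0.0552 with limma). Of 4 measured markers of the last proximal tubule segment (S3), the amino acid transporter gene Slc7a13 passed as lower (-4.09, adjusted p = 5.41e-05 with limma). The other S3 markers did not pass and went both ways, with Slc5a10 at 1.02, Slc22a7 at 1.00 and Cyp7b1 at -0.34, and the median of the 4 was 0.33. Podocyte markers (3 measured) and fibroblast markers (3 measured) had 0 past the threshold, with Wt1 at 0.27, Podxl at 0.08, Dcn at 0.51 and Col1a1 at 0.14. In such isolates fewer cells of a type and less RNA per cell cannot be told apart.

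Promoters from RefSeq (GRCm38.p6) were read for 7 of the 8 genes, in 9 windows of 250 bases before an annotated start, and searched on both strands for ACGTG and GCGTG, the core to which hypoxia-inducible factors bind. At least 1 of these cores stood in 4 of the 9 windows (44.4%), against 38.6% of all 32851 promoter windows in the same table. The windows of Lrp2 and Cubn, which had the closest profiles over the 6 arrays of any pair among the 8 genes, are shown because neither holds the core. The windows of Dab2 and Clcn5, the genes whose values separated the arms, are shown with the core in capitals. All read 5′ to 3′ on the gene's strand and end at the base before the start.
Lrp2: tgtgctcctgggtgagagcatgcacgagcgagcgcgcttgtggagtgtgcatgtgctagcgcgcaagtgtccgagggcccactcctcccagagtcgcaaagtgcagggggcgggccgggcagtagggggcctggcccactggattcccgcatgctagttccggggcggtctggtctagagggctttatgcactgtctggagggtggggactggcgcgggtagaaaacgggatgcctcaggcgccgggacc
Cubn: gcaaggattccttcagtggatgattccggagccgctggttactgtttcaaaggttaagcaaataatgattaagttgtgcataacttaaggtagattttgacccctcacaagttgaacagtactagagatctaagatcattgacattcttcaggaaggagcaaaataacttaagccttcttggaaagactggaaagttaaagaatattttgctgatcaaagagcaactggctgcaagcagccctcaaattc
Dab2: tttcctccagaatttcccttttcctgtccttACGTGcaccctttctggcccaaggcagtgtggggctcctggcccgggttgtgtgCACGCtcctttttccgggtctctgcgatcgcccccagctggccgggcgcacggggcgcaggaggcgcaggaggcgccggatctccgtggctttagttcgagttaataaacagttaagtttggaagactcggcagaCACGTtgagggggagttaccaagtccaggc
Clcn5: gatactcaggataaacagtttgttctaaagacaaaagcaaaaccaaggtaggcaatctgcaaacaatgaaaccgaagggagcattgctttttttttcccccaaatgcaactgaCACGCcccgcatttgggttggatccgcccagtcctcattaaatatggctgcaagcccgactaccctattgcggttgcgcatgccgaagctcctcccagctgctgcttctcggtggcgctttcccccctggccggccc

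The window of Lrp2 is chr2:69586030-69586279 and that of Cubn is chr2:13491877-13492126, both on the minus strand. The Dab2 window, chr15:6386498-6386747 on the plus strand, belongs to the second of its annotated starts, and holds the core at positions -219, -165 and -30 from the start. The Clcn5 window, chrX:7319359-7319608 on the minus strand, holds it once, at -137. The other annotated start of each of these genes has no match in its window, and which start was in use in these cells was not measured. Of the remaining windows, Lrpap1 had 1 match at -208, Amn had overlapping matches at -26 and -25 that read CACGTG, and Ocrl had none. The half-site GTTAAT of the proximal tubule regulator HNF1 occurred in 1 of the 9 windows, that of Dab2 at -65, against 6.43% of all windows. A match in the letters is not evidence of binding, and the absence of one says nothing about sequence outside these windows.

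The question of the comparison was whether the transcripts of this uptake machinery differ between injured tubular cells of the PT2385 and vehicle arms. None of the 8 genes passed the threshold (limma, Benjamini-Hochberg adjustment over all clusters), where 0.829% of all clusters did. At an unadjusted p under 0.05 there were 2, Dab2 and Clcn5, both lower in IR PT2385, where 14.5% of all clusters met that criterion in either direction and 6.54% in the lower one. These 2 were also the ones whose arrays did not overlap between the groups, both lower in IR PT2385, as were 9.13% of all clusters. Of the 8 differences 4 were positive and 4 negative. Their median was -0.04 on the log2 scale, beside 0.02 for all clusters, and the median size was 0.13, beside 0.12 for all clusters. All of the genes but Ocrl had a mean log2 signal above 8. Clusters with a mean of at least 8 had a median difference of -0.05, near that of the 8 genes.

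**Figure D1:**
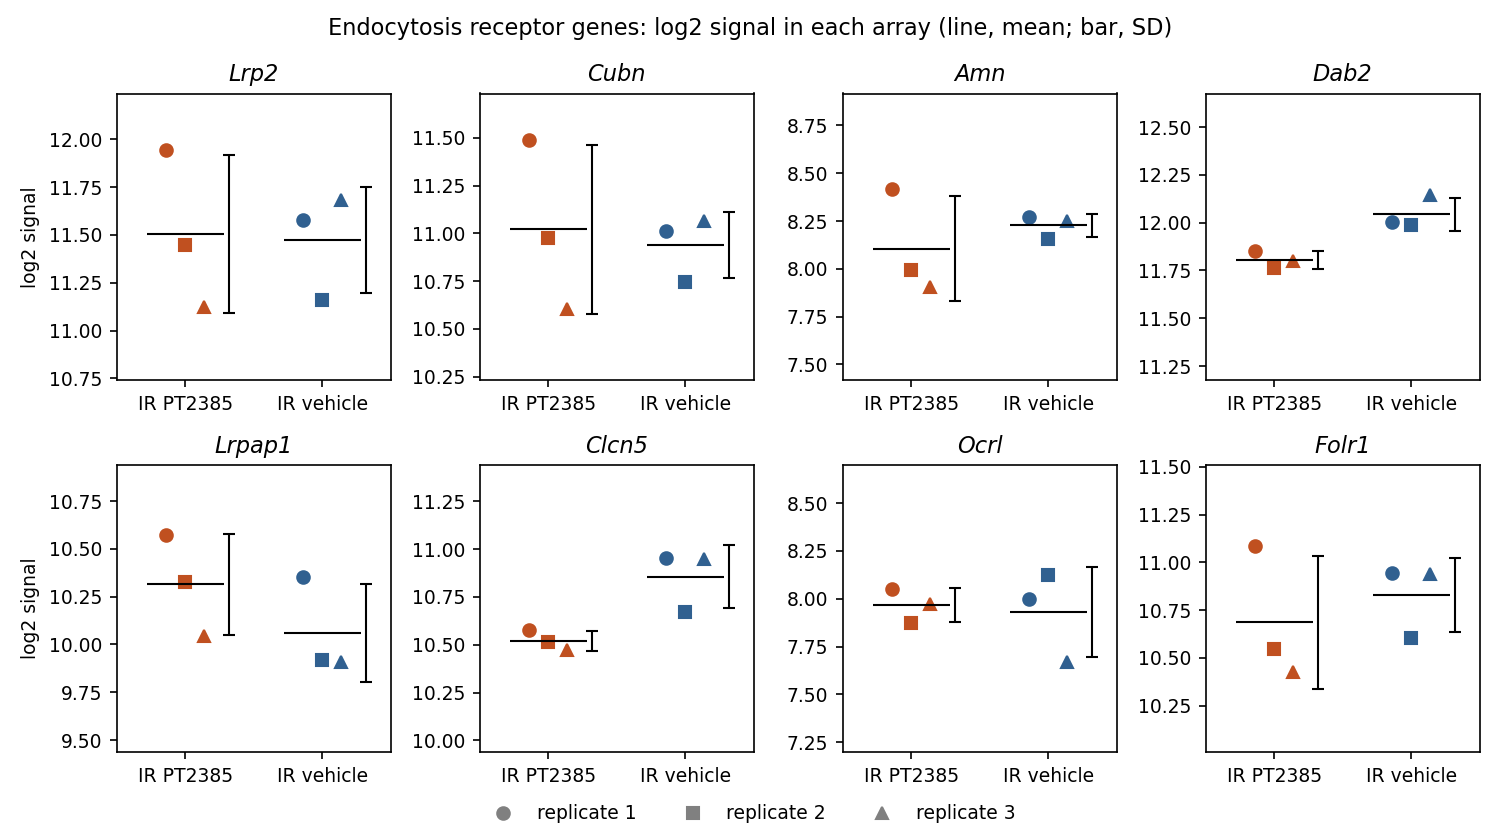
Log2 signal (vertical axis, spanning the same range in each panel) of the 8 genes in the 3 IR PT2385 arrays (orange, left) and the 3 IR vehicle arrays (blue, right), with the group mean as a line and the SD as a bar. Dab2 and Clcn5 separate the groups. Lrp2, Cubn, Amn, Lrpap1 and Folr1 are spread widely within IR PT2385, with replicate 1 highest and replicate 3 lowest.

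Lrp2, which encodes the megalin receptor itself, had a log2 signal of 11.94, 11.45 and 11.12 in the IR PT2385 arrays and 11.58, 11.16 and 11.68 in the IR vehicle arrays. The highest and the lowest array were both of the PT2385 arm, so the groups overlapped fully. The means were 11.50 ± 0.41 in IR PT2385 and 11.47 ± 0.28 in IR vehicle (SD, n = 3 each). They differed by 0.03 (SE 0.21, adjusted p = 0.963 with limma). The 95% interval runs from -0.46 to 0.52, which allows an IR PT2385 signal of 0.728 to 1.44 times that of IR vehicle. The sign of this difference was not stable, and turned negative when the arrays were centred on their medians (-0.01), with array weights (-0.01), without IR PT2385 replicate 1 (-0.19) and without IR vehicle replicate 2 (-0.13).

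Cubn, the receptor for intrinsic factor with vitamin B12 and a partner of megalin in albumin uptake, had 11.49, 10.97 and 10.61 in the IR PT2385 arrays against 11.01, 10.74 and 11.06 in the IR vehicle arrays. As for Lrp2, both extremes lay in the PT2385 arm. The difference was 0.08 (SE 0.21, 95% interval -0.39 to 0.55, adjusted p = 0.889 with limma), and it turned to -0.15 without IR PT2385 replicate 1 and to -0.02 without IR vehicle replicate 2. Amn, whose product escorts cubilin, had 8.42, 7.99 and 7.91 in the IR PT2385 arrays and 8.27, 8.16 and 8.25 in the IR vehicle arrays. Here the IR vehicle arrays lay close together, between the highest IR PT2385 array and the other two. The difference of Amn was -0.12 (SE 0.14, 95% interval -0.44 to 0.20, adjusted p = 0.721 with limma). It was -0.28 without IR PT2385 replicate 1, -0.07 without replicate 2 and -0.02 without replicate 3 of that arm.

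Folr1 encodes a folate receptor that is abundant on the proximal tubule, where it takes up folate from the filtrate. It had 11.08, 10.55 and 10.43 in the IR PT2385 arrays, against 10.95, 10.61 and 10.94 in the IR vehicle arrays. IR PT2385 replicate 1 was above every IR vehicle array, and the other 2 IR PT2385 arrays were below every one. The difference was -0.14 (SE 0.18, 95% interval -0.55 to 0.27, adjusted p = 0.747 with limma). Leaving out single arrays moved it by over 1.5 times, to -0.34, -0.07 and -0.01 without IR PT2385 replicates 1, 2 and 3, and to -0.09, -0.26 and -0.09 without IR vehicle replicates 1, 2 and 3.

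Dab2 differed from the receptors in its pattern. Its signal was 11.85, 11.76 and 11.80 in the IR PT2385 arrays and 12.00, 11.99 and 12.14 in the IR vehicle arrays. All IR PT2385 arrays were lower than all IR vehicle arrays, and the SD within a group was 0.05 in IR PT2385 and 0.09 in IR vehicle. The difference was -0.24 (SE 0.09, 95% interval -0.45 to -0.03), a linear ratio of 0.847, with an unadjusted p of 0.0324 in limma's fit and an adjusted p = 0.300. It kept its sign in the 14 alternatives run, between -0.28 and -0.19, and the adjusted p ran from 0.154 to 0.591. Dab2 is also made by macrophages and endothelial cells. Of 6 macrophage markers 5 were measured and 4 were lower in IR PT2385, with Lyz2 past the threshold (-1.19, SE 0.16, adjusted p = 0.0202 with limma, but 0.131 without IR PT2385 replicate 2 and 0.0635 without IR vehicle replicate 3). The other measured macrophage markers did not pass, with Ptprc at -0.47, Csf1r at -0.09, Adgre1 at -0.05 and C1qa at 0.11. The median difference of the list was -0.09. Its mean log2 signal, Lyz2 and Ptprc included, was 6.72 to 6.74 in IR PT2385 arrays and 6.89 to 7.32 in IR vehicle arrays. Lyz2 and Ptprc had by far the largest differences of the list, so the gap between these means does not describe its other markers. Of 4 endothelial markers 2 were higher and 2 lower, with 0 past the threshold. Their list mean was 8.32 to 8.53 in IR PT2385 and 8.21 to 8.70 in IR vehicle. The smallest p belonged to Cdh5 (difference -0.14) and Emcn (difference 0.14). The part of these cells in the Dab2 signal was not tested.

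Clcn5 had the largest difference in size among the 8 genes. Its signal was 10.58, 10.51 and 10.47 in the IR PT2385 arrays and 10.95, 10.67 and 10.95 in the IR vehicle arrays. The groups did not overlap, and IR vehicle replicate 2 lay closest to the PT2385 arm. The difference was -0.34 (SE 0.11, 95% interval -0.58 to -0.09), a linear ratio of 0.793, with an unadjusted p of 0.0139 in limma's fit and an adjusted p = 0.227. Over the 13 alternatives that kept this X-linked gene it lay between -0.43 and -0.29, with an adjusted p from 0.119 to 0.504. The difference thus held its direction but did not pass the threshold in any of them.

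Ocrl, which encodes the phosphatase that removes a phosphate from membrane phosphoinositides on the way from coat to endosome, had 8.05, 7.87 and 7.97 in the IR PT2385 arrays and 8.00, 8.12 and 7.67 in the IR vehicle arrays. The groups overlapped, and the IR vehicle arrays held both extremes. Its difference was 0.03 (SE 0.13, 95% interval -0.26 to 0.33, adjusted p = 0.929 with limma), with a sign that changed between alternatives. Lrpap1 encodes RAP, the chaperone that keeps megalin from binding ligands while it is folded. It had 10.57, 10.33 and 10.04 in the IR PT2385 arrays, against 10.35, 9.92 and 9.91 in the IR vehicle arrays. Although 2 IR vehicle arrays lay below all 3 IR PT2385 arrays, IR vehicle replicate 1 lay among them. The difference, the largest positive one of the 8, was 0.25 (SE 0.17, 95% interval -0.13 to 0.64, adjusted p = 0.525 with limma). It was 0.13 without IR PT2385 replicate 1 and 0.39 without replicate 3 of that arm, and 0.40 without IR vehicle replicate 1.

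**Figure D2:**
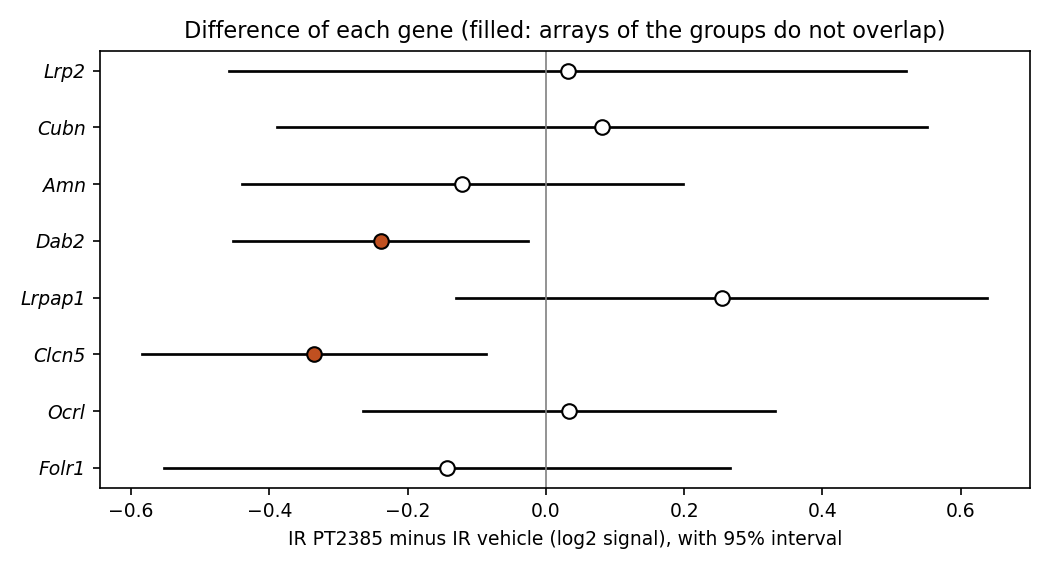
Difference between the groups, IR PT2385 minus IR vehicle, in log2 signal (horizontal axis) for each of the 8 genes, with limma's 95% interval as a line. Filled points are the genes whose arrays did not overlap between the groups: the intervals of Dab2 (-0.45 to -0.03) and Clcn5 (-0.58 to -0.09) do not reach 0, before adjustment over all clusters, and the other 6 include it.

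Within the PT2385 arm the receptor genes were widely spread. IR PT2385 replicate 1 was the highest and replicate 3 the lowest of the arm for 6 of the 8 genes, an order seen in 21.3% of all clusters. For Clcn5 this order spans only 0.10 on the log2 scale, while it spans 0.82 for Lrp2, 0.88 for Cubn, 0.51 for Amn, 0.53 for Lrpap1 and 0.66 for Folr1. Over the 8 genes the median SD was 0.27 in IR PT2385 and 0.18 in IR vehicle, beside 0.13 in each group for all clusters.

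Markers of the first segments of the proximal tubule, where megalin and cubilin are most abundant, were spread the same way. All 7 markers listed for these segments were measured, none passed the threshold and 6 had a negative difference. The smallest p belonged to Slc13a3 (difference -0.24) and Slc4a4 (difference -0.10). The mean log2 signal of the list was 9.96 to 11.23 in IR PT2385 arrays and 10.50 to 10.70 in IR vehicle arrays. Measured from each gene's own mean over the 6 arrays, the list stood at 0.64, -0.15 and -0.62 in IR PT2385 replicates 1, 2 and 3, where Lrp2 stood at 0.46, -0.04 and -0.37. In the IR vehicle arrays the list stood at 0.11, -0.08 and 0.10, and Lrp2 at 0.09, -0.33 and 0.19. The fall from IR PT2385 replicate 1 to 3 was not confined to these segments. Over these arrays the thick limb and distal tubule list stood at 0.964, 0.425 and 0.101, and the collecting duct list at 0.391, 0.313 and 0.173. The macrophage list was level there, at -0.163, -0.178 and -0.162. The sodium-phosphate cotransporter gene Slc34a1 had 12.28, 11.68 and 10.91 in the IR PT2385 arrays and 11.92, 11.53 and 11.87 in the IR vehicle arrays. The lactate transporter gene Slc5a12 had 12.14, 11.28 and 10.49 in the IR PT2385 arrays and 11.55, 11.13 and 11.54 in the IR vehicle arrays. These 2 transporters were named after their values were seen. The part of the first proximal tubule segments in the receptor signals was not tested. Dab2 and Clcn5 did not share this spread, with ranges of 0.09 and 0.10 over the IR PT2385 arrays.

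**Figure D3:**
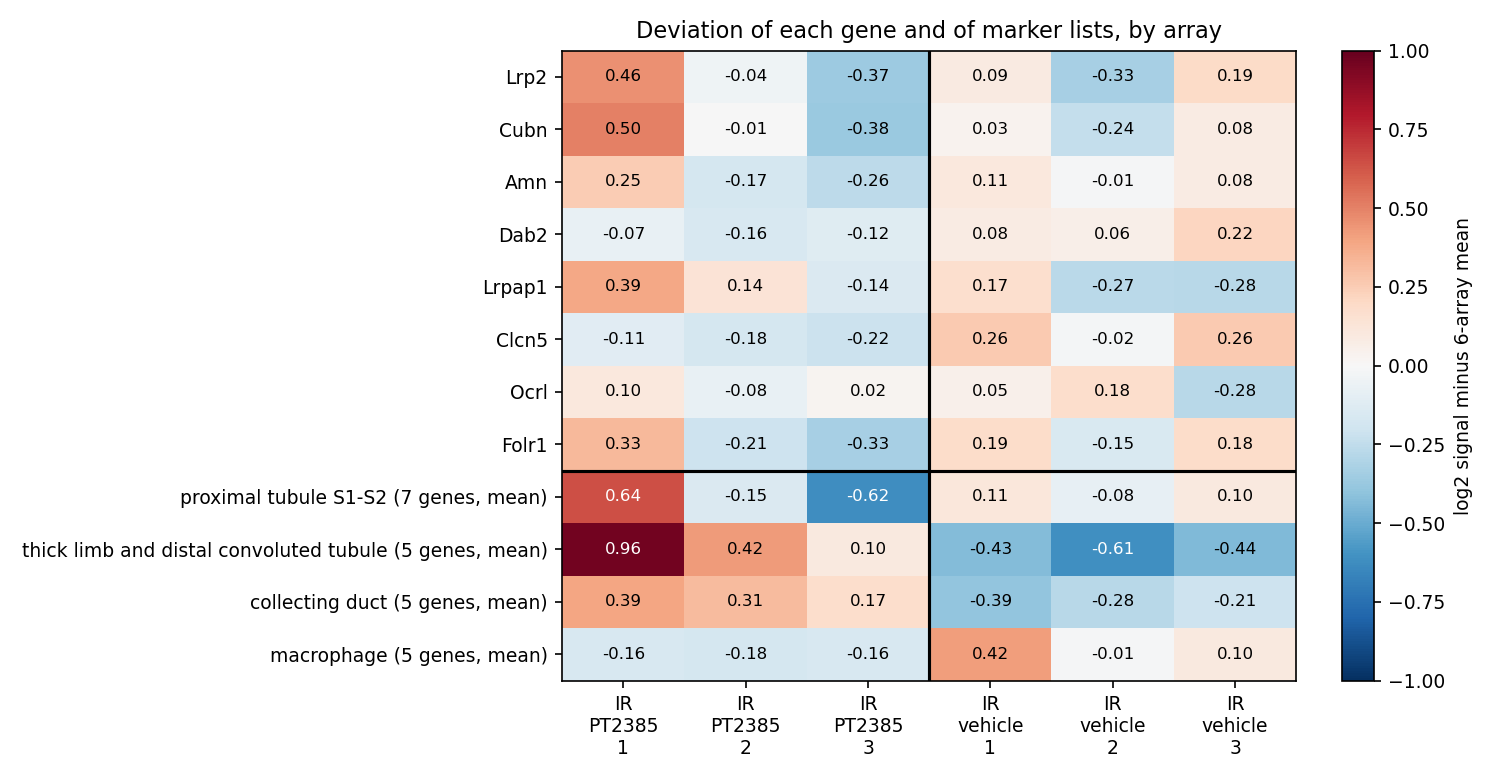
Deviation of each of the 8 genes (rows above the line) and of the mean of 4 marker lists (rows below it) from the 6-array mean, in log2 signal, for each IR PT2385 array (left) and IR vehicle array (right). Lrp2, Cubn, Amn, Lrpap1 and Folr1 and the first proximal tubule segments (S1-S2) are positive in IR PT2385 replicate 1 and negative in replicate 3. Dab2 and Clcn5 are negative in all 3 IR PT2385 arrays.

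Across the 6 arrays the values of Lrp2 and Cubn ran close together. Likeness was measured as the root-mean-square difference between profiles centred on their own means, among brighter clusters (mean log2 signal of at least 8) that vary at least 0.5 times as much as the gene. Of 2140 such genes Cubn ranked 2 for Lrp2 (0.07 on the log2 scale), behind the brush border scaffold gene Pdzk1 (0.06) and ahead of the adducin gene Add3 (0.08). Of 2259 genes Lrp2 ranked 3 for Cubn (0.07), behind the sarcosine dehydrogenase gene Sardh (0.05) and Pdzk1 (0.05). Pdzk1 had 10.51, 9.95 and 9.69 in the IR PT2385 arrays and 10.12, 9.85 and 10.18 in the IR vehicle arrays. It thus had the same highest and lowest arrays as Cubn within each arm. With quantile normalization Cubn still ranked 2 for Lrp2, and Lrp2 ranked 4 for Cubn. For Lrp2, the other members ranked 20 (Folr1), 126 (Amn), 331 (Lrpap1) and 585 (Clcn5). Dab2 varied too little to be ranked, and Ocrl lay under the minimum signal.

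The wider uptake pathway was described with 7 lists of 127 genes, of which 115 were measured. Of these, 0 were higher and 1 was lower past the threshold, and 4 were higher and 17 lower at an unadjusted p under 0.05. The single call is 0.87% of the measured list genes, near the 0.829% of all clusters. At the unadjusted p the share was 18.3% in either direction and 14.8% lower, beside 14.5% and 6.54% of all clusters. The shares of all clusters are not matched for signal level. Among clusters with a mean of at least 8, 62.6% had a negative difference as deposited and 51% after quantile normalization. The gene past the threshold was Cd36, a scavenger receptor that takes up fatty acids and oxidised lipoproteins. Its signal was 9.22, 8.53 and 8.48 in the IR PT2385 arrays and 10.93, 10.78 and 11.05 in the IR vehicle arrays. Every IR PT2385 array was lower than every IR vehicle array by more than the spread within either group. The difference was -2.18 (SE 0.19, adjusted p = 0.00186 with limma) and passed in the 14 alternatives run, between -2.41 and -2.04 with an adjusted p from 8.16e-05 to 0.0199. Cd36 is also made by endothelial cells and macrophages, whose marker lists are given above beside Dab2, and their part in its signal was not tested.

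Other receptors of the LDL receptor family and related uptake receptors did not pass. In that list of 20 measured genes, Cd36 included, 9 had a positive and 11 a negative difference, with a median of -0.06. The mannose 6-phosphate receptor gene Igf2r, which carries lysosomal enzymes, had 9.02, 8.50 and 8.82 in the IR PT2385 arrays and 9.38, 9.49 and 9.41 in the IR vehicle arrays. Its difference was -0.64 (SE 0.14, adjusted p = 0.0874 with limma). The groups did not overlap, and the call was gained with array weights (adjusted p = 0.0225) and without IR PT2385 replicate 1 (adjusted p = 0.0428). The sorting receptor gene Sort1 went the other way, with 9.10, 9.05 and 9.15 in the IR PT2385 arrays and 8.58, 8.67 and 8.83 in the IR vehicle arrays. Its groups did not overlap either, and its difference was 0.41 (SE 0.10, adjusted p = 0.135 with limma). Lrp12 and Lrp8, relatives of the LDL receptor, differed by -0.86 and -1.01 (adjusted p of 0.115 and 0.135 with limma). Both were dim. Lrp12 had means of 6.57 in IR PT2385 and 7.43 in IR vehicle, and Lrp8 had 5.67 and 6.69. These means lay under the highest background control value, 7.47. Lrp12 gained a call with array weights (adjusted p = 0.0450) and without IR vehicle replicate 2 (adjusted p = 0.0224). These 4 genes followed Cd36 in order of p and were named after their values were seen.

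Genes of the coat and of the endosome mostly had small negative differences. In the clathrin coat and adaptor list 19 of 21 measured genes were negative, with a median of -0.10 and 0 past the threshold. That share moves with the scaling: 14 of 21 were negative after quantile normalization and 20 of 21 with arrays centred on their medians. Among all clusters 46.5% were negative, and among those with a mean of at least 8 the share was 62.6%. For the latter it was 51% after quantile normalization and 72.3% after centring. The smallest p values belonged to the coat protein gene Eps15 (-0.30, adjusted p = 0.202) and the lipid phosphatase gene Synj1 (-0.27, adjusted p = 0.290), both from limma's fit. In the endosomal sorting and recycling list 18 of 23 were negative (17 after quantile normalization and 22 after centring), with a median of -0.14 and 0 past the threshold. Snx27, a sorting nexin that returns membrane proteins to the surface, had 9.11, 9.12 and 9.16 in the IR PT2385 arrays and 9.46, 9.44 and 9.52 in the IR vehicle arrays. The groups did not overlap, and the difference was -0.34 (SE 0.09, adjusted p = 0.144 with limma). Appl1, an adaptor of early endosomes, differed by -0.32 (adjusted p = 0.193 with limma).

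Other phosphoinositide enzymes and the binding partners of OCRL showed a median of -0.04 over 15 measured genes, with 9 negative and 0 past the threshold. The myotubularin gene Mtm1 differed by -0.37 at a dim signal (4.56 in IR PT2385 and 4.93 in IR vehicle), and the kinase gene Pip5k1c by -0.21, with adjusted p of 0.226 and 0.353 in limma's fit. Genes of endosomal chloride, proton and sodium exchange had a median of -0.09 over 15 genes, with 10 negative and 0 past the threshold. With arrays centred on their medians 14 were negative, and 10 after quantile normalization. Clcn3, a relative of Clcn5, was named after its values were seen and differed by -0.24 (adjusted p = 0.421 with limma). Atp6v0a1, a subunit of the proton pump, differed by -0.47 (adjusted p = 0.190 with limma). The sodium-proton exchanger gene Slc9a3, which works at the brush border, had 10.26, 10.25 and 10.23 in the IR PT2385 arrays and 10.01, 9.97 and 10.03 in the IR vehicle arrays. Its arrays did not overlap and its difference was positive, at 0.24 (adjusted p = 0.262 with limma).

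Genes that handle the vitamins brought in by these receptors had a median of 0.06 over 15 measured, with 9 positive, 6 negative and 0 past the threshold. Cyp24a1, which breaks down active vitamin D, had 9.46, 10.28 and 11.33 in the IR PT2385 arrays and 11.28, 11.59 and 11.03 in the IR vehicle arrays. The arm given PT2385 was widely spread and overlapped the other, with a difference of -0.94 (SE 0.40, adjusted p = 0.330 with limma). Stra6, a receptor for retinol-binding protein, differed by 0.30 (adjusted p = 0.260 with limma). Of transcription factor genes that act on Lrp2, Cubn or proximal tubule genes in general, 8 were measured and 0 passed. Hnf4a had 10.34, 10.17 and 10.07 in the IR PT2385 arrays and 10.44, 10.35 and 10.54 in the IR vehicle arrays. The groups were separated by a narrow gap, and the difference was -0.25 (SE 0.11, adjusted p = 0.339 with limma). Ppara had a difference of -0.31 (adjusted p = 0.596 with limma).

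**Figure D4:**
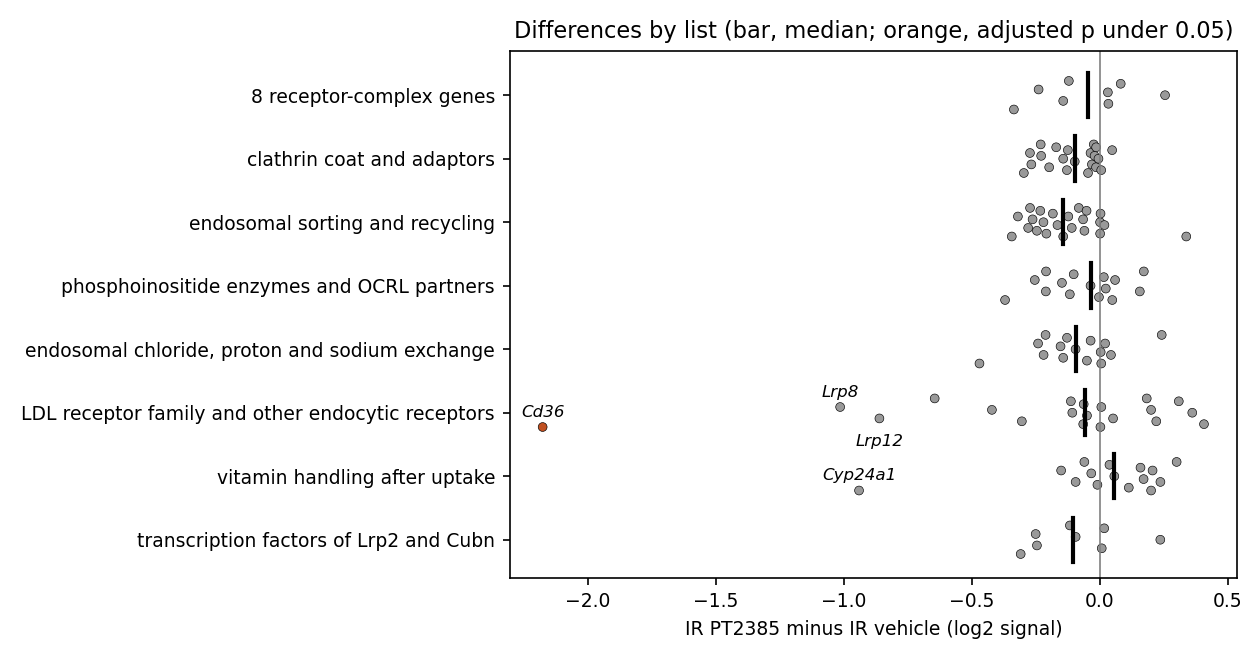
Difference between the groups, IR PT2385 minus IR vehicle, in log2 signal (horizontal axis) for each measured gene of the 8-gene set and of the 7 pathway lists, with the list median as a black bar. Cd36 (orange, -2.18) is the one gene with an adjusted p under 0.05, and the medians lie between -0.14 and 0.06.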

How the data were processed

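Affymetrix whole-transcript arrays were hybridised with biotin-labelled targets, per the labels' protocols. The deposited table holds a log2 signal for each transcript cluster on each array. The submitters' processing notes name Transcriptome Analysis Console; how background was corrected and signals were normalized and summarised is not stated there, and no step was undone. Array medians lay between 6.196 and 6.248. Of 28846 rows, 6640 control rows were left out and 22206 clusters were tested, with no filter on dim signals. Symbols came from the platform annotation (19572 clusters with 1 symbol, 0 with several, 2634 with none), and the RefSeq gene table changed 0 of them. The 8 genes lay above all 23 background control rows (highest value 7.47) in every array.

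The test was limma 3.58.1 under R 4.3.3 (lmFit and eBayes, treatment as the only term, 2-sided, Benjamini-Hochberg over all clusters, threshold 0.05). Differences are IR PT2385 minus IR vehicle, with SE and 95% intervals from the moderated variance. The fit was tested on simulated data. The number of arrays limits the precision. The members and the lists were chosen with earlier results of these data known. Named genes are all members and the 3 most like Lrp2 and Cubn. From each list they are the genes past the threshold or else the 2 with the smallest p. Slc34a1, Slc5a12, Igf2r, Lrp12, Lrp8, Sort1, Clcn3 and the S3 markers beside Slc7a13 and the macrophage markers beside Lyz2 were added after their values were seen. Of 179 listed genes 162 were found by symbol. Alternatives were a replicate block, other scalings, a filter at a mean of 5, 1 cluster per gene, array weights, a trended robust prior, no X and Y clusters, and omission of each array.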

Additional observations from a re-analysis of the deposited data

How the results depend on the processing

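None of the 8 genes passed the threshold in limma's fit under any of the 14 alternatives run (13 for Clcn5 and Ocrl). The differences of Amn, Dab2, Lrpap1, Clcn5 and Folr1 kept their sign in all of these. Centring arrays on their medians turned Lrp2 to -0.0146 and Ocrl to -0.0125, and array weights turned Lrp2 to -0.0147 and Ocrl to -0.0326. With single arrays left out, Lrp2 ran from -0.19 to 0.22, Cubn from -0.15 to 0.29, Ocrl from -0.10 to 0.13, Amn from -0.28 to -0.02, Folr1 from -0.34 to -0.01 and Lrpap1 from 0.13 to 0.40; the cause was not tested. Over all clusters 184 passed (74 higher and 110 lower in IR PT2385). Centring on the medians gave 57 higher and 135 lower, array weights gave 456 calls, and leaving out single arrays gave 42 to 179, with 42 without IR PT2385 replicate 2 and 81, 65 and 72 without IR vehicle replicates 1, 2 and 3. Of the pathway lists 1 gene (Cd36) passed, 3 with array weights (with Lrp12 and Igf2r) and 1 to 2 without single arrays, the second gene being Igf2r without IR PT2385 replicate 1 and Lrp12 without IR vehicle replicate 2. Deviations of same-numbered arrays from their group means correlated at 0.138, 0.025 and -0.059 across clusters. With 3 arrays in each group, whose deviations sum to 0, such values cannot decide whether the replicate numbers pair the arrays. With the number as a replicate block 178 clusters passed, 0 of the 8 genes, and 2 list genes (Cd36 and Lrp8). No member had more than 1 cluster, so no other cluster could be tried. Differences of bright genes can be understated, since array signals saturate gradually. Whether this applied to any gene here was not tested.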
